A study of Mus musculus with 4 samples.

Results

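The genes described here write, maintain, read and remove DNA methylation, or belong to the HELLS and UHRF1 chromatin machinery. They are Hells, Cdca7, Uhrf1, Uhrf2, Dnmt1, Dnmt3a, Dnmt3b, Tet1, Tet2 and Tet3, which are 10 of the 16142 genes in a deposited FPKM table (FPKM divides the reads of a gene by its length and by the size of the library). They were chosen by symbol with earlier results of the comparison of R111A with WT in view. Their values in that comparison are therefore given as a description, with no test.

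RNA-seq was done on splenic CD4+ T cells, with 2 libraries from WT B6 mice and 2 from Cd4CreERT2LSL-R111Afl/fl mice. R111A is a form of Regnase-1, an RNase encoded by Zc3h12a, whose cleavage site for the protease MALT1 is mutated, so that it persists after T cell receptor signaling. In R111A mice it was driven by a CAG promoter in the Rosa26 locus, together with EGFP, on top of the endogenous gene, after removal of a floxed stop by a Cre active in Cd4-expressing cells and induced by tamoxifen (75 mg/kg for 5 days). The cells were isolated with beads, FACS sorted and stimulated for 12 h with 5 µg/mL anti-CD3 and 1 µg/mL anti-CD28 in both groups. The WT mice carried neither the Cre nor the transgene, and the labels leave unclear whether they also received tamoxifen. For other assays the paper names WT controls treated with tamoxifen. Its sorting of mice with a GFP reporter began with a gate on GFP+ cells. Mice of both sexes aged 6 to 12 weeks were in use in the study, and the CD25 gate of these libraries is not stated. Because the groups differ in the transgene, Cre and EGFP together, and may differ in tamoxifen and in a GFP gate, the parts of these cannot be told apart.

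The transgene was read as Zc3h12a RNA. Its level was 16.97 and 15.72 FPKM in WT replicates 1 and 2, against 196.3 and 130.87 FPKM in R111A replicates 1 and 2, and both R111A libraries lay far above both WT libraries. The log2 fold change was 3.22 (standard error 0.19, adjusted p = 9.2e-06 from limma). Reads of the transgene and of the endogenous gene are not separated. The deposited values summed to 801475 and 836143 FPKM in WT and to 1053551 and 1012215 FPKM in R111A, and how many reads stand behind each value is unknown. Relative to WT replicate 1, the depth read from steps among low values was 0.995 in WT replicate 2, 0.956 in R111A replicate 1 and 0.844 in R111A replicate 2.

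DNA methylation at CpG sites is copied after each round of replication. UHRF1 binds hemimethylated CpG sites and ubiquitinates histone H3, which recruits the methyltransferase DNMT1, while the SNF2-type ATPase HELLS and its partner CDCA7 remodel nucleosomes so that heterochromatin can be methylated. DNMT3A and DNMT3B methylate DNA de novo, and the TET enzymes oxidise methylcytosine, a step toward its removal that in T cells is known for keeping the Foxp3 locus active.

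Of the 10 genes, 6 had both R111A values below both WT values (Hells, Cdca7, Uhrf1, Dnmt1, Dnmt3b and Tet3), 2 had both above (Uhrf2 and Tet1), and 2 overlapped (Dnmt3a and Tet2). Among the 9831 genes tested, those whose mean reached 1 FPKM, 46.3% had both R111A libraries below both WT libraries and 32.0% had both above. Tet1 did not reach that mean, so 9 of the 10 genes were in the fit. The fit called 32.1% of all genes tested lower and 21.2% higher at an adjusted p under 0.05, and 8.34% lower and 8.52% higher when a 2-fold change was also asked for. These percentages stand beside the counts only, since the members were selected on the same contrast. Rescaling to TPM, which gives every library the same sum, moved the median log2 fold change of all genes tested from -0.12 to -0.42. The split moved from 3152 lower and 2088 higher genes to 5096 (51.8%) and 1335 (13.6%). With median-of-ratios factors 2465 genes (25.1%) were lower and 2567 (26.1%) higher, and with quantile normalization 2630 (26.8%) and 2327 (23.7%). The direction with more called genes thus changed with the scaling. Without WT replicate 1 or WT replicate 2, 1957 (19.9%) and 1937 (19.7%) genes were lower, and 14.4% and 14.7% were higher. Without R111A replicate 1 or R111A replicate 2, 37.6% and 38.6% were lower and 25.8% and 25.4% higher. The counts of each gene list under a scaling named here or without a library have these shares as their background.

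**Figure D1:**
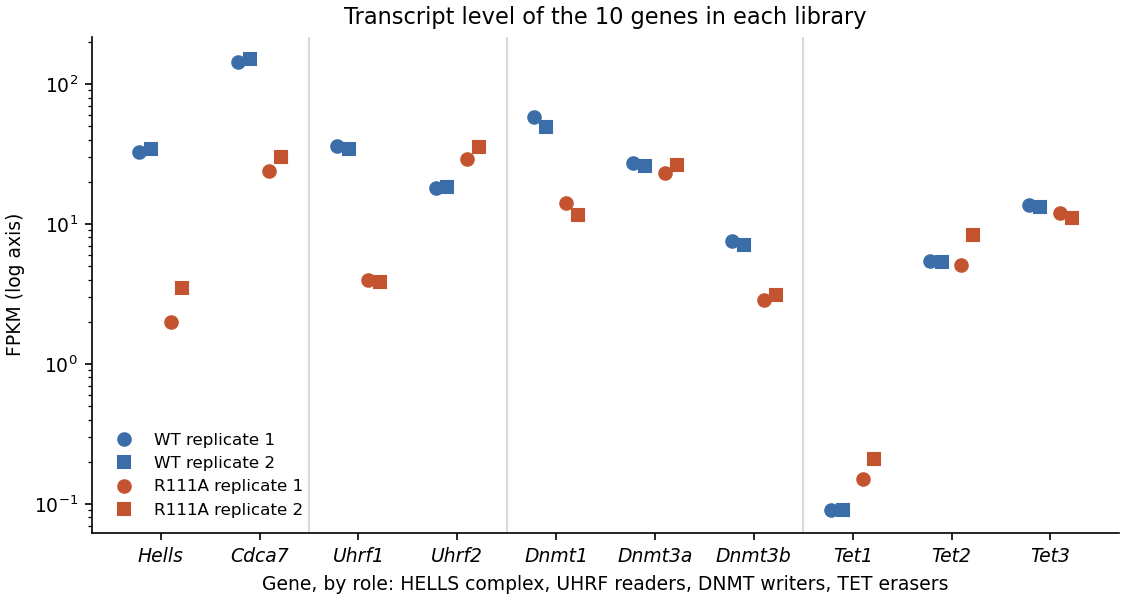
FPKM of the 10 genes in each library, on a log axis, with WT and R111A libraries as separate points. Hells, Uhrf1, Cdca7 and Dnmt1 show the widest gaps, with R111A below WT, and Uhrf2 has both R111A points above both WT points.

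HELLS is the remodeling ATPase of the group. Hells (NCBI gene 15201, chromosome 19 from 38930262 to 38970470 in the GRCm38 build, which is that of mm10) was at 32.75 and 34.57 FPKM in WT replicates 1 and 2 and at 2.0 and 3.47 FPKM in R111A replicates 1 and 2. Both WT libraries were high and close together, both R111A libraries were low, and the groups did not overlap. The mean was 33.66 ± 1.29 FPKM in WT and 2.735 ± 1.04 FPKM in R111A (SD, n = 2 each), so R111A held 8.13% of the WT level. The log2 fold change was -3.24 (standard error 0.19), the rank 5 from the lowest of the 9831 genes tested. Without R111A replicate 2, or without R111A replicate 1, which differed from each other more than the WT pair did, the value was -3.53 or -2.95.

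CDCA7 is a zinc finger protein that brings HELLS to chromatin, and mutations in either gene cause the immunodeficiency syndrome ICF in people. Cdca7 (gene 66953, chromosome 2 from 72476187 to 72486892) had the highest WT level of the 10 genes, with 143.56 and 150.02 FPKM in WT and 23.96 and 29.91 FPKM in R111A. Every R111A value lay below every WT value, with a log2 fold change of -2.41 (standard error 0.14) and 18.3% of the WT level. The ratio of Hells to Cdca7 was 0.228 and 0.23 in WT and 0.0835 and 0.116 in R111A, so Hells was lower relative to its partner in both R111A libraries.

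The promoters of Hells and Cdca7 are shown because both genes were low in R111A and both windows hold an E2F-like motif. E2F factors are known to drive genes of DNA replication. The motif was searched as TTTCGCGC, TTTGGCGC, TTTCCCGC or TTTGCCGC on both strands. Each window runs from 250 bases before to 50 bases after a RefSeq start site (GRCm38.p6), 5′ to 3′ on the strand of the gene, with the motif in capitals. The Hells window is chr19:38930740-38931039 on the plus strand, and the Cdca7 window is chr2:72475969-72476268 on the plus strand.
Hells: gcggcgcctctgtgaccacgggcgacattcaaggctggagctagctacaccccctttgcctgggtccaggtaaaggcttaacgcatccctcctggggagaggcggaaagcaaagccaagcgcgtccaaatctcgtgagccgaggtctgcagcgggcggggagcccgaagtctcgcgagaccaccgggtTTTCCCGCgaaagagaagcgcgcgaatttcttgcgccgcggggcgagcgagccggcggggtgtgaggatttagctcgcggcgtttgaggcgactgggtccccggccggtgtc
Cdca7: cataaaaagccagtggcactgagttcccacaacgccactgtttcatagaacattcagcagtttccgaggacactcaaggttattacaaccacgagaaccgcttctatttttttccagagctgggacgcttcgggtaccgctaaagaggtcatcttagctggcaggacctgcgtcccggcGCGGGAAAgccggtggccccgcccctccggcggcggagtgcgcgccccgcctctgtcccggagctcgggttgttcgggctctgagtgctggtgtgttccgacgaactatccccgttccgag
The match in Hells began 62 bases before the start on the strand of the gene, and the match in Cdca7 lay 71 bases before the start on the opposite strand. Such a match is a description of the letters and not a binding site.

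UHRF1 is the reader that couples replication to DNMT1. Uhrf1 (gene 18140, chromosome 17 from 56303337 to 56323486) was at 35.75 and 34.56 FPKM in the WT libraries, against 3.99 and 3.87 FPKM in the R111A libraries. The replicates of each group were close together and the groups were far apart. R111A held 11.2% of the WT level, with a log2 fold change of -2.87 (standard error 0.13) and rank 16 from the lowest.

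UHRF2 is its close paralog, which has a similar domain layout and does not replace UHRF1 in maintenance methylation. Uhrf2 (gene 109113, chromosome 19 from 30030430 to 30093726) was at 18.15 and 18.29 FPKM in the WT libraries, against 29.18 and 35.31 FPKM in the R111A libraries. Both R111A libraries were above both WT libraries, the opposite of Uhrf1, with a log2 fold change of 0.78 (standard error 0.14), which was 0.46 after rescaling to TPM. R111A was at 177% of the WT level. The level of Uhrf1 divided by that of Uhrf2 was 1.97 and 1.89 in WT and 0.137 and 0.11 in R111A. The more abundant member of the pair was therefore Uhrf1 in both WT libraries and Uhrf2 in both R111A libraries, an order that no single scaling factor for a library can change. Summed over the pair, the level was 53.9 and 52.9 FPKM in WT against 33.2 and 39.2 FPKM in R111A.

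The promoters of the paralogs are shown because their genes moved in opposite directions. RefSeq lists 2 starts for Uhrf1, and the window of the second holds the E2F-like motif, in capitals. The windows are chr17:56304063-56304362 for Uhrf1 and chr19:30030263-30030562 for Uhrf2, both on the plus strand.
Uhrf1: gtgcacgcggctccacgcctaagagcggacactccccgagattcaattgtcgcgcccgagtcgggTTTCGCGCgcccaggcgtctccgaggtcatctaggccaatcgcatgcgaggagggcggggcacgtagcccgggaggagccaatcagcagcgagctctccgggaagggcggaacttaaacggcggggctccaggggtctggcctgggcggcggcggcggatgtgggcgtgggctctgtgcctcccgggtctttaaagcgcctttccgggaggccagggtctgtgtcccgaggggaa
Uhrf2: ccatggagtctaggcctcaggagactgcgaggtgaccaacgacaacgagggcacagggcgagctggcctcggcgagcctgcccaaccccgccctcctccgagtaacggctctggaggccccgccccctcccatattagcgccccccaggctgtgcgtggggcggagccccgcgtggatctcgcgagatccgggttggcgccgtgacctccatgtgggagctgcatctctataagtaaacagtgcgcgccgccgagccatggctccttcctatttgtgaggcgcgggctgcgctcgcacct
The match in Uhrf1 began 185 bases before the start. The Uhrf2 window holds none of the 4 sequences searched, and neither does the window of the first Uhrf1 start. Exact matches alone were counted. The Uhrf2 window holds gttggcgc and the first Uhrf1 window cttcccgc, which differ from TTTGGCGC and TTTCCCGC in the first letter. Gene-level FPKM does not say which start was used.

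**Figure D2:**
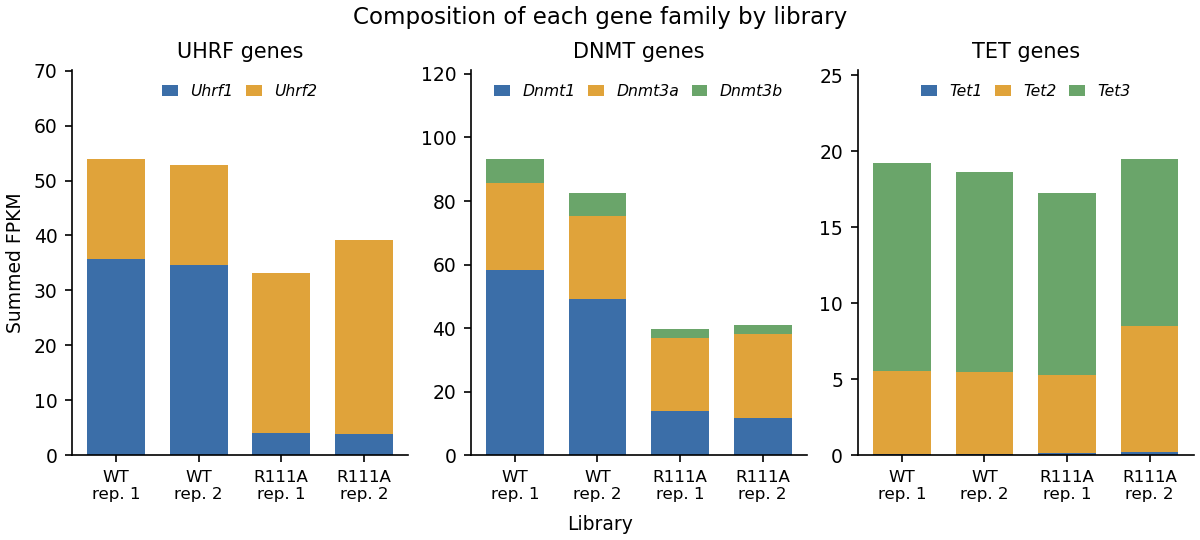
Summed FPKM of the DNMT, UHRF and TET genes in each library, stacked by gene from 0. The DNMT bars are shorter in R111A, mainly in the Dnmt1 segment, the UHRF bars change from mostly Uhrf1 to mostly Uhrf2, and the TET bars overlap between the groups.

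DNMT1 is the maintenance methyltransferase. Dnmt1 (gene 13433, chromosome 9 from 20907206 to 20959888, minus strand) was at 58.41 and 49.28 FPKM in the WT libraries, against 14.03 and 11.57 FPKM in the R111A libraries. The lowest WT value was well above the highest R111A value. The log2 fold change was -1.99 (standard error 0.15), with 23.8% of the WT level left. The ratio of Uhrf1 to Dnmt1 was 0.612 and 0.701 in WT and 0.284 and 0.334 in R111A, and that of Hells to Dnmt1 was 0.561 and 0.702 in WT and 0.143 and 0.3 in R111A. Uhrf1 and Hells were thus both lower relative to Dnmt1 in each R111A library.

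RefSeq lists 3 starts for Dnmt1, and the window of the third, chr9:20952574-20952873 on the minus strand, holds a pair of matches. It is shown as the remaining promoter with the motif among the 10 genes.
Dnmt1: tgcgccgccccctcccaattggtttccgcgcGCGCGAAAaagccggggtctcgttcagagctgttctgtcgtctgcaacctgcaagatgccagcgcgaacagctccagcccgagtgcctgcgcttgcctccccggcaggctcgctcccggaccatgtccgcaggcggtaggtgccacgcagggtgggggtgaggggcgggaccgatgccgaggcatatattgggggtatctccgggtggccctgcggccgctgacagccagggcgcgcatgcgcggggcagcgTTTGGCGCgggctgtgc
TTTCGCGC lay on the opposite strand 219 bases before the start, and TTTGGCGC began at base 34 of the transcript. The windows of the other starts of Dnmt1 hold no match.

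The de novo enzymes differed from each other. Dnmt3b (gene 13436, chromosome 2 from 153649411 to 153687730) was at 7.51 and 7.12 FPKM in the WT libraries, against 2.85 and 3.12 FPKM in the R111A libraries. Its groups did not overlap, and the log2 fold change was -1.06 (standard error 0.14), with 40.8% of the WT level. With a pseudocount of 5 FPKM the value was -0.63. Dnmt3a (gene 13435, chromosome 12 from 3801559 to 3914443) was at 27.28 and 26.08 FPKM in the WT libraries, against 22.98 and 26.44 FPKM in the R111A libraries. Its R111A replicate 2 lay between the WT replicates, and the log2 fold change of -0.11 (standard error 0.14) was smaller in size than that error. That value was 0.02 with median-of-ratios factors and -0.43 after rescaling to TPM, where it was -0.01 relative to the median of all genes. An antisense gene, Dnmt3aos, overlaps exons of Dnmt3a and is not in the table, and the strand setting of the counting is not stated, so reads of the pair cannot be told apart.

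The balance between the methyltransferases shifted with Dnmt1. Dnmt1 made up 62.7% and 59.7% of the summed FPKM of Dnmt1, Dnmt3a and Dnmt3b in WT and 35.2% and 28.1% in R111A. The sum itself was 93.2 and 82.5 FPKM in WT and 39.9 and 41.1 FPKM in R111A. The ratio of Dnmt1 to Dnmt3a was 2.14 and 1.89 in WT and 0.611 and 0.438 in R111A, so the more abundant transcript was Dnmt1 in both WT libraries and Dnmt3a in both R111A libraries.

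The TET dioxygenases showed small differences. Tet3 (gene 194388, chromosome 6 from 83362373 to 83457208, minus strand) was at 13.71 and 13.18 FPKM in the WT libraries, against 12.01 and 10.96 FPKM in the R111A libraries. Both R111A libraries were lower, but the log2 fold change of -0.21 (standard error 0.14) was -0.10 relative to the median of all genes. Tet2 (gene 214133, chromosome 3 from 133463677 to 133545136, minus strand) was at 5.45 and 5.36 FPKM in the WT libraries, against 5.11 and 8.31 FPKM in the R111A libraries. R111A replicate 1 was below the WT replicates and R111A replicate 2 above them, so the log2 fold change of 0.24 (standard error 0.20) rests on a single library. It was -0.07 without R111A replicate 2, 0.54 without R111A replicate 1, and -0.05 after rescaling to TPM. The antisense gene Gm42567 overlaps exons of Tet2 and is not in the table. Tet1 (gene 52463, chromosome 10 from 62804570 to 62887469, minus strand) was close to 0 throughout, at 0.09 FPKM in both WT libraries and at 0.15 and 0.21 FPKM in R111A. Its order between groups was lost with quantile normalization, where the log2 fold change was -0.01. The summed level of the TET genes was 19.2 and 18.6 FPKM in WT and 17.3 and 19.5 FPKM in R111A, which overlapped.

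In the order of mean levels, which FPKM allows within a library, WT ran Cdca7, Dnmt1, Uhrf1, Hells, Dnmt3a, Uhrf2, Tet3, Dnmt3b, Tet2 and Tet1. Uhrf1 and Hells overlapped between the WT libraries, and the other neighbors did not. In R111A the order was Uhrf2, Cdca7, Dnmt3a, Dnmt1, Tet3, Tet2, Uhrf1, Dnmt3b, Hells and Tet1. Across the R111A libraries the values of Uhrf2 overlapped with those of Cdca7, Cdca7 with Dnmt3a, Dnmt1 with Tet3, and Dnmt3b with Hells. Within each R111A library the order was that of the means, except that Hells was above Dnmt3b in R111A replicate 2. Hells thus moved from the place next to Uhrf1 to the lowest mean of the 9 genes tested. The 10 genes summed to 343 and 339 FPKM in WT and to 116 and 133 FPKM in R111A.

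Under each scaling tried, the direction of Hells, Cdca7, Uhrf1, Dnmt1, Dnmt3b, Tet3 and Uhrf2 was the same, whereas that of Dnmt3a, Tet1 and Tet2 was not. After rescaling to TPM the log2 fold changes were -3.55 for Hells, -3.19 for Uhrf1, -2.74 for Cdca7, -2.32 for Dnmt1 and -1.35 for Dnmt3b. Relative to the TPM median of all genes these were -3.14, -2.77, -2.32, -1.90 and -0.93. Relative to the median without rescaling they were -3.13, -2.76, -2.30, -1.88 and -0.95. The closeness was fixed in advance and is no check of the values. TPM multiplies each library by a single factor, and subtracting the median removes that shift apart from the effect of the pseudocount.

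**Figure D3:**
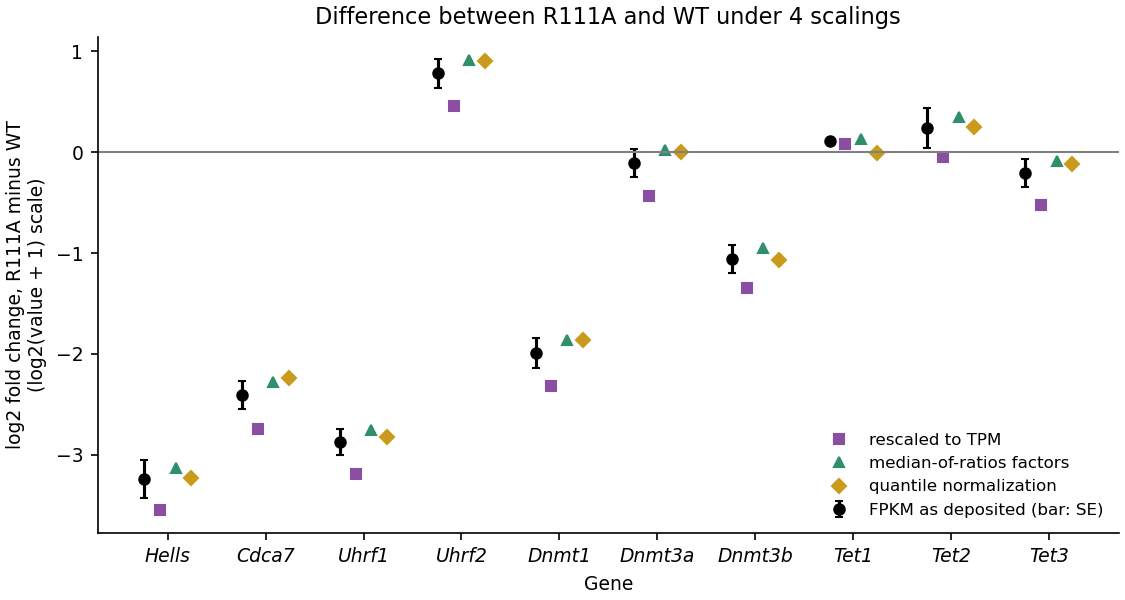
Log2 fold change of R111A over WT for the genes under FPKM as deposited (with its standard error as a bar), TPM, median-of-ratios factors and quantile normalization. Hells, Uhrf1, Cdca7, Dnmt1 and Dnmt3b stay below 0 and Uhrf2 above 0 under each scaling, while Dnmt3a, Tet1 and Tet2 change sign between scalings.

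The genes most like Hells, Uhrf1 and Uhrf2 were found by the distance between centered log2(FPKM + 1) profiles over the 4 libraries, among genes whose mean reached 5 FPKM. For Hells they were Dtl (distance 0.308), Crabp2 (0.31), Cd226 (0.319), Pros1 (0.412) and Mcm5 (0.51). For Uhrf1 they were Mcm5 (0.067), Orc1 (0.112), Cish (0.119), Mcm3 (0.149) and Gins2 (0.157), which lay closer to it than any gene lay to Hells. For Uhrf2 they were Crcp (0.05), Ankra2 (0.057), Retreg3 (0.063), Zfp110 (0.064) and Ddx50 (0.072). With 4 libraries in 2 groups, such distances mostly reflect the size of the group difference.

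Maintenance methylation takes place in S phase, so S phase genes were set beside Hells, Uhrf1, Dnmt1 and Cdca7. Of 20 genes of S phase and proliferation, 17 fell and 1 rose at an adjusted p under 0.05 in limma (17 and 0 after rescaling to TPM or without either WT library, 17 and 2 without R111A replicate 2), and 15 of those that fell did so by at least 2-fold. Over all genes tested 32.1% fell and 21.2% rose, and 8.34% fell by at least 2-fold. The list had a median log2 fold change of -1.62, compared with -0.12 over every gene tested and -1.06 over the 9 tested members. Mcm5, a subunit of the replicative helicase, had a log2 fold change of -2.93, as had Mcm3, with Gins2 at -2.89, Mcm2 at -2.55, Mcm4 at -2.34 and Top2a at -2.33. The mean of log2(FPKM + 1) over the list, relative to the mean of the 4 libraries, was 0.78 and 0.76 in WT and -0.76 and -0.78 in R111A. Hells and Uhrf1 were thus low in the same libraries in which the S phase genes were low, and fewer cells in S phase and less RNA per cell cannot be told apart in these bulk samples.

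Partners of the maintenance machinery included genes with large decreases. Of 10 tested genes of the list of maintenance and ICF partners, 6 fell (60%) and 1 rose (10%), compared with 32.1% and 21.2% over all genes tested. After rescaling to TPM, where 51.8% of all genes tested fell and 13.6% rose, 9 fell and 0 rose in the list. Without either WT library 3 fell and 0 rose. Lig1, the ligase that joins Okazaki fragments and binds UHRF1, was at 27.93 and 25.61 FPKM in the WT libraries, against 5.10 and 3.64 FPKM in the R111A libraries, and its log2 fold change was -2.38 (standard error 0.17, adjusted p = 1.7e-05). Cdca7l, the paralog of Cdca7, was at 36.09 and 33.49 FPKM in the WT libraries, against 7.20 and 7.54 FPKM in the R111A libraries (-2.10, standard error 0.13, adjusted p = 1.2e-05). Both were low in each R111A library, as was Pclaf, which encodes a PCNA-associated factor (-1.57, standard error 0.15, adjusted p = 6.6e-05). The gene that rose was the ICF gene Zbtb24, a known activator of Cdca7, from 9.82 and 9.47 FPKM to 14.25 and 14.17 FPKM (0.52, standard error 0.13, adjusted p = 0.012), named after its values were seen. The ratio of Cdca7 to Zbtb24 was 14.6 and 15.8 in WT and 1.68 and 2.11 in R111A.

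Genes that act with the TET enzymes went both ways. Of 17 tested TET cofactors and base excision genes, 6 rose (35.3%) and 4 fell (23.5%), compared with 21.2% and 32.1% over all genes tested, and the median log2 fold change was -0.01. With TPM 5 rose and 7 fell. Gadd45b, a stress-induced gene linked to active demethylation, was at 76.81 and 96.23 FPKM in the WT libraries, against 617.30 and 476.11 FPKM in the R111A libraries (2.64, standard error 0.17, adjusted p = 1.2e-05). Gadd45a (1.54), Idh1 (1.26) and Cxxc5 (1.03) rose as well, and Cxxc5 was at 0.83 after rescaling to TPM or without WT replicate 1 and at 0.88 without R111A replicate 1. Parp1 fell from 81.88 and 72.92 FPKM to 26.08 and 23.13 FPKM (-1.61, standard error 0.14, adjusted p = 4.1e-05). Idh1 and Idh2, which make the TET cofactor alpha-ketoglutarate in the cytosol and in mitochondria, moved in opposite directions, with Idh2 at -1.47 (standard error 0.16, adjusted p = 0.00014). The other genes of the list that fell, named after their values were seen, were Tdg, the glycosylase that excises oxidised methylcytosine (-1.02), and Lig3 (-0.84). The other genes that rose, named in the same way, were Gadd45g (0.86) and Ogt (0.55).

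The list of H3K9 methylation and heterochromatin, a mark that UHRF1 also reads, held 18 tested genes, of which 10 fell (55.6%) and 2 rose (11.1%), compared with 32.1% and 21.2% over all genes tested. With TPM 14 fell and 2 rose. The median log2 fold change was -0.60. Cbx3, which encodes an HP1 protein, was at 134.51 and 142.83 FPKM in the WT libraries, against 37.05 and 49.97 FPKM in the R111A libraries (-1.66, standard error 0.16, adjusted p = 7.5e-05). Mphosph8, Cbx5 and Ehmt2 also fell by more than 2-fold, though Cbx5 was at -0.96 without R111A replicate 1 and Ehmt2 at -0.97 without R111A replicate 2, whereas Morc2a, an ATPase that works with the HUSH complex, rose (1.16, standard error 0.13, adjusted p = 0.00016), as did Atf7ip (0.76, named after its values were seen). Without WT replicate 2 there was 1 gene that rose, and without R111A replicate 1 there were 4.

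Of 15 tested readers of methylated or unmethylated CpG, 4 rose (26.7%) and 1 fell (6.67%), compared with 21.2% and 32.1% over all genes tested, and 1 rose and 3 fell after rescaling to TPM. The change past 2-fold was that of Mbd6 (1.01, standard error 0.14, adjusted p = 0.00044), which fell short of 2-fold after rescaling to TPM (0.73), with a pseudocount of 5 FPKM (0.67), and without WT replicate 1 (1.0 when rounded) or R111A replicate 1 (0.99). Mbd1 (0.38) and Kdm2a (0.38) also rose and Mbd3 (-0.46) fell, named after their values were seen. The fall of 1 reader was lost without either WT library, under quantile normalization or median-of-ratios factors, and when low genes were kept in. Without WT replicate 1 and WT replicate 2, 2 readers and 1 reader rose, and without R111A replicate 2, 8 rose. Among 23 tested Polycomb genes, 6 rose and 6 fell (26.1% each), compared with 21.2% and 32.1% over all genes tested. After rescaling to TPM 2 rose and 10 fell, whereas 9 rose and 4 fell with median-of-ratios factors and 7 rose and 4 fell with quantile normalization. Ezh2, the H3K27 methyltransferase, fell (-1.33, standard error 0.16, adjusted p = 0.00023), as did its partner Suz12 (-1.34) and Cbx6 (-1.09), while the H3K27 demethylase gene Kdm6b rose (1.67, standard error 0.19, adjusted p = 0.00018). The number of Polycomb genes that rose was 2 without either WT library and 10 without R111A replicate 1.

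Among 25 tested SNF2 ATPases, the wider family of HELLS, 7 fell (28%) and 5 rose (20%), compared with 32.1% and 21.2% over all genes tested, and 14 fell and 2 rose after rescaling to TPM. Rad54l (-1.49), Ttf2 (-1.36) and Btaf1 (-1.0) fell, Chd7 (1.58) and Chd2 (1.22) rose, and the value of -3.24 for Hells lay below all of these. Smarca2 (0.42), Ino80 (0.54) and Ercc6 (0.66) rose as well, named after their values were seen. Btaf1 was at -0.94 without WT replicate 1 and at -0.72 without R111A replicate 1. With a pseudocount of 5 FPKM Rad54l was at -0.53, Ttf2 at -0.8, Btaf1 at -0.85 and Chd2 at 0.92. Without either WT library 2 of the family rose, and without R111A replicate 2, 12 fell. In the methyl donor cycle, 3 of 8 tested genes fell and 3 rose (37.5% each), compared with 32.1% and 21.2% over all genes tested, and after rescaling to TPM 4 fell and 0 rose. Ahcy, which removes the inhibitor S-adenosylhomocysteine, fell (-1.38, standard error 0.12, adjusted p = 5e-05). Mtr (-0.87) and Mat2a (-0.52) fell and Mat2b (0.43), Ahcyl2 (0.51) and Ahcyl1 (0.57) rose, named after their values were seen, and 0 rose without either WT library.

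Over these 7 lists of chromatin and methyl donor genes, 37 of 114 tested genes fell (32.5%) and 27 rose (23.7%), with a median log2 fold change of -0.13. Over all genes tested 32.1% fell and 21.2% rose, with a median of -0.12, so the lists as a whole lay near the background. After rescaling to TPM 60 fell and 12 rose, against 51.8% and 13.6% of all genes tested, and 13 and 11 rose without WT replicate 1 and WT replicate 2. With median-of-ratios factors 32 fell and 33 rose, and with quantile normalization 31 fell and 31 rose, so the excess of lower genes was not kept. The values of Hells, Uhrf1, Cdca7 and Dnmt1 lay far below the median of the lists. They are the lowest of members that were chosen with this contrast in view, so the gap sets selected genes against the middle of whole lists. The median of the 9 tested members was -1.06, and Lig1 (-2.38) and Cdca7l (-2.10) of the lists lay below Dnmt1 (-1.99).

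**Figure D4:**
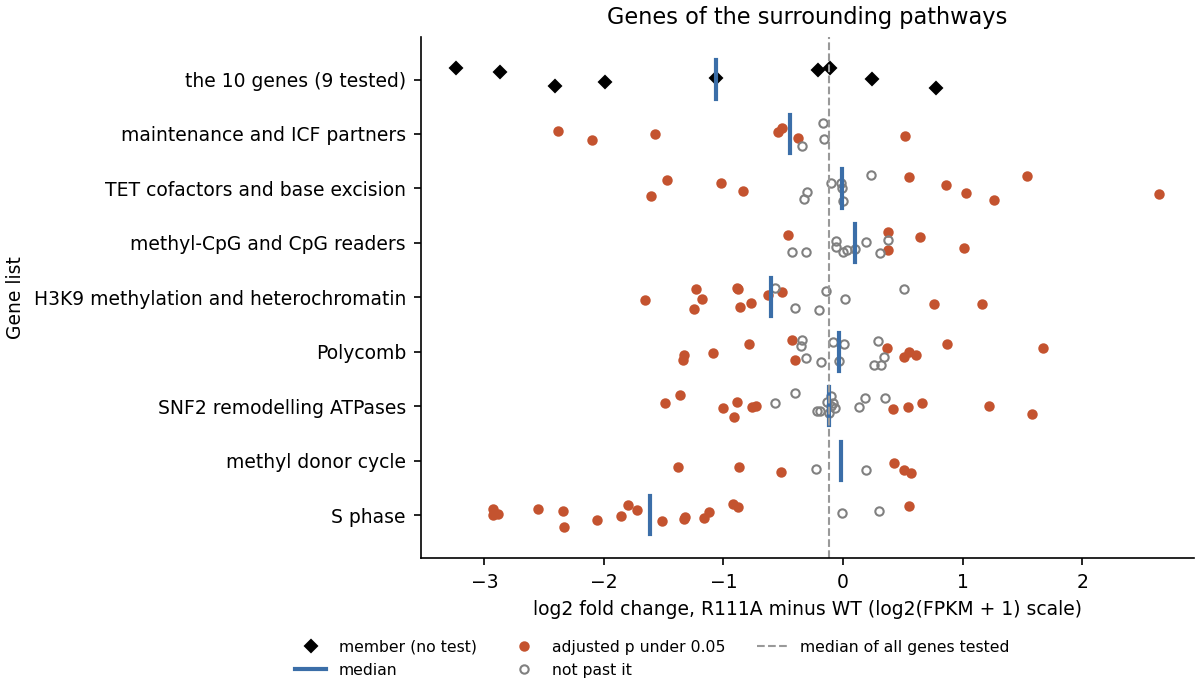
Log2 fold change of each tested gene, with a row for the members, for each of the 7 chromatin and methyl donor lists and for the S phase list, with the median of the list as a bar and the median of all genes tested as a dashed line. The S phase row and the members lie furthest to the left, with medians of -1.62 and -1.06, and the rows of the 7 lists spread to both sides of the dashed line.

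The E2F-like motif was found in windows of Hells, Cdca7, Uhrf1 and Dnmt1, and in none of Uhrf2, Dnmt3a, Dnmt3b, Tet1, Tet2 and Tet3. The 10 genes have 15 windows in RefSeq. Of the 10184 windows of genes tested, 436 (4.28%) hold the motif, and of all 32851 windows 2.26%. Per gene, 414 of 8041 tested genes with a window had it (5.15%). The calls were then split by the motif, a split made after the values were seen and given as a description. Among the genes of the 7 lists with a window, 6 had the motif, namely Lig1, Pclaf, Suv39h1, Cbx3, Ezh2 and Suz12, and 6 of the 6 fell. Of the 88 without the motif, 27 fell and 19 rose. In the S phase list 7 of 16 genes with a window had it, and 6 of these fell, as did 9 of the 9 without it. Over the 410 tested genes with the motif other than the members, which include the list genes just given, 43.4% fell and 14.4% rose, with a median log2 fold change of -0.30, against 31.5% and 21.3% with a median of -0.11 for the 7622 genes without it. With TPM 61.5% of the genes with the motif fell and 7.56% rose, against 51.6% and 13.7% without it.

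**Figure D5:**
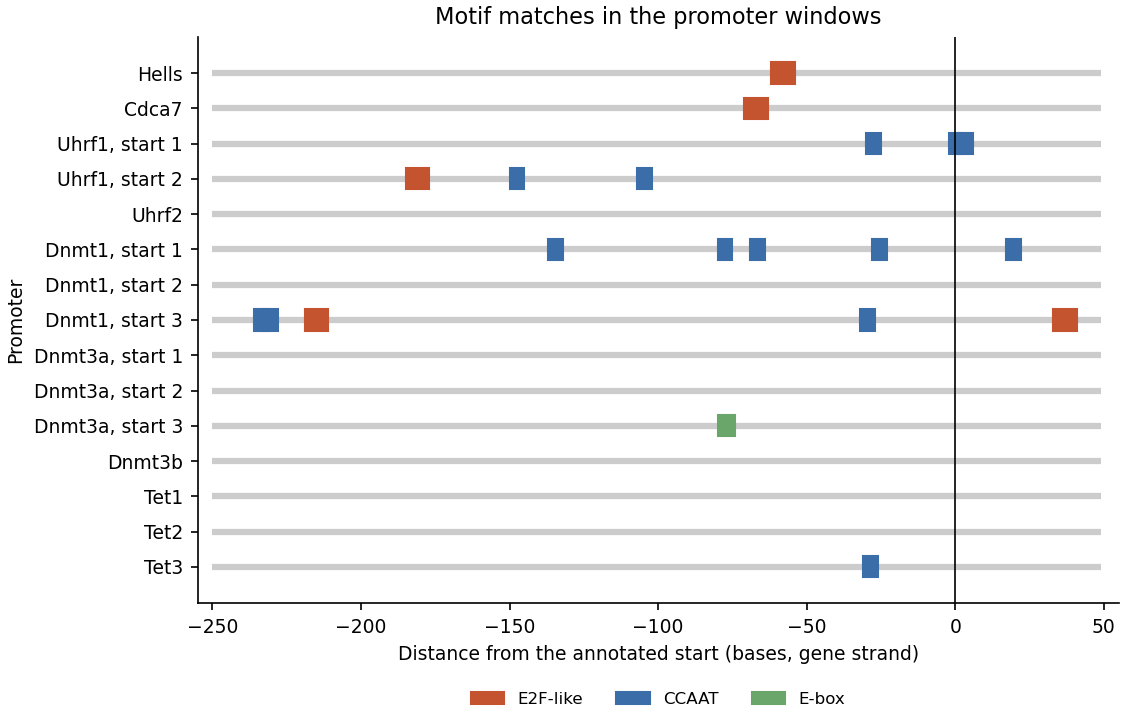
Position of motif matches in the promoter windows of the members, in bases from the start site, with one row for each window. E2F-like matches lie in Hells, Cdca7, the second Uhrf1 window and the third Dnmt1 window, and in no other row.

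CCAAT and the E-box CACGTG were searched in the same windows. CCAAT was in 38.3% of the windows of genes tested and CACGTG in 10.5%. Among the members CCAAT occurred in windows of Uhrf1, Dnmt1 and Tet3, and CACGTG in the third Dnmt3a window. The number of CG dinucleotides was 34 in Hells, 33 in the second Uhrf1 window, 33 in the third Dnmt1 window, 28 in Uhrf2 and 26 in Cdca7, against a median of 21 (quartiles 13 and 29) over the windows of genes tested. Dnmt3b had 30 and Tet3 22, Tet2 had 57, and the first and second Dnmt3a windows had 46 and 47. Windows below the median were the first and second of Dnmt1 (2 and 12), the first of Uhrf1 (12), Tet1 (17) and the third of Dnmt3a (18). Windows above and below the median thus occurred among members that were low in R111A and among those that were not.

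RNA of genes that promoter methylation keeps silent in somatic cells was low in both groups. Of 22 such germline genes, 13 were in the table and 0 reached a mean of 1 FPKM. Their summed level was 0.18 and 0.40 FPKM in WT and 1.44 and 1.45 FPKM in R111A, and the highest single value was 0.48 FPKM, for both Ddx4 and Tuba3a in R111A replicate 2. Of the 12 of them with a mean above 0 and below 0.5 FPKM, 6 (50%) were higher in both R111A libraries. The same held for 32.8% of all 3998 genes in that range, whose summed level was 316.8 and 326.9 FPKM in WT and 517.5 and 564.8 FPKM in R111A, so low values were higher in R111A well beyond this list. Of 21 imprinted genes, 12 were in the table below a mean of 1 FPKM and 4 were tested, of which 2 rose (50%), compared with 21.2% over all genes tested. Igf2r rose from 10.16 and 9.05 FPKM to 29.23 and 25.65 FPKM (1.42, standard error 0.14, adjusted p = 9.3e-05) and Zrsr1 rose less (0.76, standard error 0.15, adjusted p = 0.0031). Plagl1 (0.18, adjusted p = 0.33) and Impact (0.22, adjusted p = 0.40) were not called, and Impact was called without R111A replicate 1 (0.54, adjusted p = 0.007). DNA methylation itself was not measured.

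Markers of cell state differed between the groups as well. Counts of markers are given beside all genes tested, of which 32.0% had both R111A libraries above both WT libraries and 46.3% had both below. All 7 markers of resting naive T cells were higher in both R111A libraries, with Ccr7 as the most abundant. Their summed levels were 622.28 and 574.19 FPKM in WT and 1274.0 and 958.76 FPKM in R111A. Lef1 was not called by limma (0.52, adjusted p = 0.12), with 44.06 and 43.45 FPKM in WT against 87.31 and 45.32 FPKM in R111A. Klf2 (100.18 and 41.54 FPKM) and Tcf7 (308.77 and 185.29 FPKM) also differed widely between the R111A replicates. Activation markers summed to 1260.21 and 1240.95 FPKM in WT and 2190.25 and 2016.62 FPKM in R111A, with 3 of 6 higher in both R111A libraries and 3 lower, which is no common direction, and Nr4a1 at 982.95 FPKM in R111A replicate 1. The CD4 T cell markers in the table, 8 of 11 listed, summed to 2072.27 and 2072.64 FPKM in WT and to 1743.5 and 1561.37 FPKM in R111A, with Cd3g the most abundant by its mean, so the T cell label held in all 4 libraries. Of the 8, 6 were lower in both R111A libraries and 1, Cd3d, was higher, at 205.01 and 213.72 FPKM in WT against 275.23 and 266.87 FPKM in R111A, while Cd4 itself was at 157.54 and 131.28 FPKM in WT and 70.69 and 51.35 FPKM in R111A. Treg markers summed to 20.96 and 18.39 FPKM in WT and 12.45 and 11.98 FPKM in R111A, and Foxp3, the most abundant by its mean over the libraries, was at 11.31 and 8.78 FPKM against 2.86 and 1.86 FPKM. Nrp1 was also lower in both R111A libraries, whereas Ikzf4 was higher, at 3.33 and 3.09 FPKM in WT against 5.95 and 4.29 FPKM in R111A, above Foxp3 there, and Ikzf2 overlapped, at 4.50 and 4.34 FPKM against 2.35 and 4.36 FPKM. The part of these differences in the values of Hells, Uhrf1, Cdca7 and Dnmt1 was not tested.

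Markers of other cells were at low levels apart from Cst3 of the myeloid list. Among all 3998 genes with a mean above 0 and below 0.5 FPKM, 32.8% were higher in both R111A libraries, which is the background for the low markers. The CD8 T cell list summed to 7.31 and 6.76 FPKM in WT and 3.88 and 4.46 FPKM in R111A, mostly Cd8b1, with Cd8a at 0.20 FPKM or below. B cell markers summed to 2.23 and 1.18 FPKM in WT and 5.55 and 5.05 FPKM in R111A, with Pax5 at most 0.06 FPKM. Of these 9, 3 were higher in both R111A libraries (Cd79a, Cd79b and Fcrla). Cd79a and Cd79b reached a mean of 1 FPKM, above the range of that background. Cd79a, the most abundant by its mean, was at 0.32 and 0.24 FPKM in WT against 2.99 and 2.37 FPKM in R111A. NK cell markers summed to 1.14 and 1.0 FPKM in WT and 7.83 and 5.63 FPKM in R111A, with 5 of 5 higher and Eomes, which T cells can also express, the most abundant. Erythroid markers summed to 0.66 and 0.85 FPKM in WT and 13.23 and 13.25 FPKM in R111A, with 4 of 7 higher, Hba-a1 the most abundant and 2 at 0 in all libraries. Myeloid markers summed to 83.31 and 85.06 FPKM in WT and 103.85 and 118.86 FPKM in R111A, with 7 of 10 higher, Csf1r at most 0.07 FPKM and S100a9 at 0 throughout. Cst3, the most abundant of them, was at 80.97 and 83.19 FPKM in WT against 88.0 and 107.79 FPKM in R111A, and Cd68 was at 1.54 and 0.78 FPKM against 8.89 and 6.81 FPKM. The Y-linked genes Ddx3y, Eif2s3y, Kdm5d and Uty were above 0 in all 4 libraries, so each holds male cells, and 3 of the 4 were higher in both R111A libraries. The part of these markers in the values of the 10 genes was not tested.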

How the data were processed

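RNA-seq of 4 libraries was used, 2 of WT and 2 of R111A stimulated CD4+ T cells, grouped by the sample labels. Per the labels and methods, the authors selected polyA RNA, aligned the reads to mm10 with Bowtie2 (version 2.4.4), estimated expression with RSEM (version 1.2.28) and deposited FPKM values. No column of values was left out (0 columns). FPKM is not a count, so no count test was used, and read depth is known only as a relative value.

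The fit was made in R 4.3.3 by limma 3.58.1 (lmFit, eBayes with a trend) on log2(FPKM + 1) values, with Benjamini-Hochberg adjustment over the 9831 genes whose mean reached 1 FPKM. Genes were called at an adjusted p under 0.05, alone or with a 2-fold change. The procedure was tested on simulated data. Exact permutation of 2 libraries against 2 has 0.333 as its smallest two-sided p. Nothing states that replicates are separate animals, so p-values measure the spread between samples.

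The members and the gene lists were chosen with earlier results of these data known. The genes named were every member, Zc3h12a, up to 6 genes of each list past both thresholds by the largest absolute log2 fold change, imprinted and germline genes whose mean reached 1 FPKM, and the 5 nearest profiles to Hells, Uhrf1 and Uhrf2. Others named were chosen after their values were seen. By gene ID, 16107 of 16142 genes matched RefSeq (GRCm38.p6), as did all 10 members. Alternatives were pseudocounts of 0.1 and 5, no filter, a filter at 5 FPKM, TPM, quantile normalization, median-of-ratios factors, a block for the replicate number, eBayes without trend, and leaving out each library. Tables and figures were made in python 3.11.15 with pandas 2.3.3 and numpy 2.4.6.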

Additional observations from a re-analysis of the deposited data

How the results depend on the processing

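Of the 13 alternatives, 4 (both filter settings, the block and eBayes without trend) cannot change a member's log2 fold change. Under the other 9, 58 of 81 values moved by no more than the spread between replicates and 23 by more. Leaving out a library cannot move a value by more than that spread when each group has 2 libraries. Those settings could therefore only add to the 58, and the 23 all came from a changed scaling or pseudocount. Hells ranged from -3.62 to -2.33, Uhrf1 from -3.19 to -2.17, Dnmt1 from -2.32 to -1.72, Dnmt3b from -1.35 to -0.63 and Uhrf2 from 0.46 to 0.92. The value of Dnmt3b fell short of 2-fold with a pseudocount of 5 FPKM (-0.63) and with median-of-ratios factors (-0.95). Of 450 values of the named genes of the lists, 449 kept their side of an adjusted p of 0.05, and Impact gained a call without R111A replicate 1. Among values that were not called, the sign changed for Plagl1 (-0.02) and Impact (-0.08) after rescaling to TPM and for Impact (-0.10) without R111A replicate 2. The 32 of these genes past both thresholds gave 412 values, of which 384 also kept the 2-fold change, and 28 values of 13 genes lost it, 12 of them with a pseudocount of 5 FPKM. Members with both R111A libraries above both WT libraries numbered 1 with quantile normalization, since Tet1 was lost, against 2 in the deposited FPKM and 3 with median-of-ratios factors, where 5 were lower. After rescaling to TPM, 5096 genes were lower and 1335 higher at an adjusted p under 0.05, 1749 were lower when a 2-fold change was added, and in the 7 lists 60 were lower and 12 higher. Median-of-ratios factors gave 2465 lower and 2567 higher genes, and 612 lower and 975 higher past both thresholds. Quantile normalization gave 2630 lower and 2327 higher, and 704 lower and 857 higher past both. Which direction held more genes thus depended on the scaling. A pseudocount of 5 FPKM left 386 higher and 402 lower genes past both thresholds, because it shrinks fold changes of low genes. With it Pclaf was at -0.64, Gadd45a at 0.88, Idh1 at 0.54, Cxxc5 at 0.45 and Cbx6 at -0.71. Morc2a (0.84) and Chd2 (0.92) fell short of 2-fold after rescaling to TPM. Btaf1 did so with median-of-ratios factors (-0.87) and quantile normalization (-0.9), and Cbx6 with median-of-ratios factors (-0.98). A filter at a mean of 5 FPKM left 521 higher, because fewer genes were tested. Leaving out each library in turn gave 1937 to 3790 lower genes by the adjusted p, 11 to 34 higher and 28 to 49 lower genes in the 7 lists, 6 to 8 members lower and 2 to 3 members higher. The lone library left in a group was then assumed to vary like the other group. Groups that do not overlap stay apart when a library is left out, so the member counts could only stay the same or rise. The cause of the shifts between scalings and without a library was not tested.

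With the replicate number as a block, 2236 genes were higher and 3358 lower at an adjusted p under 0.05. The labels do not say that the numbers pair animals, so the pairing is not used elsewhere.

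Depth is known only relative to WT replicate 1, so no counting error can be given for values such as that of Tet1.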
